A study of Mus musculus with 58 samples.

Results

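The neuropeptide precursors of the retina were followed as 8 genes, Vip, Npy, Sst, Tac1, Cck, Penk, Adcyap1 and Crh, which were taken from the table by their symbols, out of 52459 gene symbols. All 8 passed the filter for testing, a median above 4 normalized counts over all libraries, as did 19120 genes in all. The study asked how gene expression in the retina changes over the light/dark cycle in diabetes. The 30 control libraries came from wild-type C57BL/6 mice and the 28 diabetic libraries from heterozygous Ins2Akita mice, in which a mutated insulin 2 allele leads to misfolded insulin, loss of beta cells and hyperglycemia. All were male littermates aged 4 months, kept in a cycle of 12 h light and 12 h dark from birth and perfused with cold PBS, and the night retinas were taken under dim red light. Retinas were collected at ZT1, ZT5, ZT9, ZT13, ZT17 and ZT21, where ZT is the hours after lights on, with 4 to 6 libraries in each of the 12 groups of genotype and time point. The allele and the hyperglycemia that it brings cannot be told apart in this model. The study calls the libraries of a group biological replicates, while the labels do not name the mouse of each library, so p-values measure the spread between libraries.

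Neuropeptides are made as longer precursors, which are cut by prohormone convertases, stored in dense-core vesicles and released with the fast transmitters of a neuron, and most act on G protein-coupled receptors. In the retina most of them are markers of sparse amacrine cell types, and PACAP, the product of Adcyap1, is found in the melanopsin ganglion cells that signal light to the brain clock. Many of the precursor genes are classic targets of cyclic AMP through the factor CREB.

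The total count per library ranged from 7773117 to 22147398 with a median of 15406440. Summed normalized counts of 8 rod markers were 527362 to 797057 and those of 17 amacrine markers 23765 to 33470, and all of these markers were above the filter. The sum of 10 lens markers was 31260 to 47086 in 3 control libraries (ZT1 replicate 6, ZT17 replicate 5 and ZT21 replicate 2) and at most 1099 in the others, with Lim2 at 0 in all. No member gained or lost a call without these 3 libraries. As whole retinas were sequenced, fewer cells of a type and less RNA per cell cannot be told apart for any value here.

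The promoters of 6 of the 8 genes were matched in RefSeq (GRCm38.p6), as windows of 250 bases before to 50 bases after the start site, and 3 motifs were searched on both strands. These were the cyclic AMP response element TGACGTCA (CRE), its shorter form TGACG, which lies inside the CRE, and the E-box CACGTG, which is bound by clock activators. The windows with these letters are shown because genes with the same motif can be set beside each other in the results on genotype and time of day. Over all 32851 promoter windows, 1.79% held the CRE, 20.8% the shorter form and 7.15% the E-box. The CRE was found in Sst, at 48 bases before the start site, and the shorter form alone in Vip, Adcyap1, Tac1 and Cck. The E-box was found in Tac1 and Cck, at 61 and 66 bases before the start site. Start sites here are those of RefSeq, while the gene positions given later are from Gencode M21. The windows printed for Tac1 and Sst therefore lie inside the gene as annotated by Gencode. None of the 3 motifs was matched in the window of Npy, and Penk and Crh had no window to search. A match is only a description of the letters, and binding was not measured. The windows below run 5′ to 3′ on the strand of the gene, with the motif in capitals.
Sst, CRE, chr16:23890858-23890919, minus strand: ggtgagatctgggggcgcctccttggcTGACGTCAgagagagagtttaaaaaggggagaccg
Vip, shorter form, chr10:5639112-5639170, plus strand: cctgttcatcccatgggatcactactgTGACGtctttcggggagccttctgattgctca
Adcyap1, shorter form, chr17:93198899-93198957, plus strand: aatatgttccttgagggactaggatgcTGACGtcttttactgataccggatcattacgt
Tac1, E-box, chr6:7554973-7555032, plus strand: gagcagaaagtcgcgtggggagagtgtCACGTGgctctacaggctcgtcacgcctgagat
Cck, E-box, chr9:121495728-121495787, minus strand: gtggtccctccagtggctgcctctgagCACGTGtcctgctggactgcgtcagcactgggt

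To order the genes by level, counts were divided by the exon length of Gencode M21 and the total count (RPKM). In control retinas the mean RPKM was 8.84 ± 2.25 (SD, n = 30) for Npy, 7.66 ± 4.85 for Penk, 5.82 ± 1.27 for Cck, 3.20 ± 1.07 for Sst, 2.33 ± 0.408 for Tac1, 1.34 ± 0.234 for Vip, 0.652 ± 0.158 for Adcyap1 and 0.334 ± 0.161 for Crh. Npy and Penk, Penk and Cck, and Sst and Tac1 were neighbours whose gap in level was within the SD of one of the pair, while the other gaps were larger than both SDs. In diabetic retinas the order was the same except at the top, where Penk had 9.13 ± 4.24 (SD, n = 28) and Npy 8.72 ± 2.23, a gap within their SDs. The order was the same in TPM values from the same lengths. The least abundant gene, Crh, had a mean of only 7.09 reads per library, so counting alone gives it a coefficient of variation of 37.6%.

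The first comparison asked whether diabetes changed the level of the precursors, irrespective of the time of day. All counts named below are normalized counts, which are reads divided by the DESeq2 size factor of the library, unless stated otherwise. Over all time points 0 of the 8 genes had an adjusted p-value under 0.05 with edgeR's quasi-likelihood test and Benjamini-Hochberg adjustment over 19120 genes, where 2.97% of all genes passed. At an unadjusted p-value under 0.05 it was 1 gene, Vip, where 15.4% of all genes passed, and with DESeq2 and with limma-voom 1 gene, also Vip, passed after adjustment, where 669 and 568 of the 19120 genes passed. The median log2 fold change of the 8 genes was 0.06, beside 0.00 over all genes tested.

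Vip, on chromosome 10 from 5639218 to 5647617, encodes vasoactive intestinal peptide, a transmitter of a GABAergic amacrine type and of the brain clock. Its level in control retinas was 48.9 at the lowest, 65.5 in the median and 92.3 at the highest, and in diabetic retinas 40.8, 55.2 and 81.1. The ranges of the genotypes overlapped, and the mean was lower in diabetic retinas, at 56.9 ± 11.4 (SD, n = 28) against 66.2 ± 11.1 (SD, n = 30). Its log2 fold change was -0.22 (SE 0.0692, 95% interval -0.36 to -0.08, unadjusted p = 0.00225), which missed the threshold after adjustment (adjusted p = 0.0648, edgeR). The adjusted p-value was 0.0484 with DESeq2 and 0.0439 with limma-voom, and Vip missed the threshold in the other 6 of 8 settings (up to 0.1201). It ranged from 0.0305 to 0.1005 when 1 library was left out, and passed without control ZT1 replicate 4 (0.0499), control ZT17 replicate 1 (0.0449), diabetic ZT1 replicate 2 (0.0394), diabetic ZT9 replicate 3 (0.0305) and diabetic ZT17 replicate 3 (0.0388). The log2 fold change stayed between -0.24 and -0.20 in these fits.

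By time point, the mean of Vip was higher in diabetic retinas at ZT17 and lower at each of the other time points. At ZT13 the 5 control libraries had 56.2, 56.5, 59.3, 65.3 and 92.3 and the 4 diabetic ones 40.8, 48.7, 52.0 and 54.2. The groups did not overlap there, and the highest control library stood apart from the other 4. The log2 fold change was -0.42 (SE 0.184, unadjusted p = 0.0259, adjusted p = 1.00, edgeR). An unadjusted p-value under 0.05 was lost without control ZT13 replicate 1 (-0.27, unadjusted p = 0.149, edgeR) and without diabetic ZT13 replicate 5 (-0.35, unadjusted p = 0.0873). At ZT21 the 4 control libraries had 55.4, 62.0, 78.2 and 84.2, and the 5 diabetic ones 45.4, 46.4, 46.7, 63.4 and 64.0, with a log2 fold change of -0.39 (SE 0.175, unadjusted p = 0.0297, adjusted p = 1.00, edgeR). The highest diabetic libraries overlapped with the lowest control ones. Without the 3 libraries high in lens markers, the ZT21 value was -0.33 with an unadjusted p-value of 0.0945 (edgeR). It was also above 0.05 without control ZT21 replicate 1 or 2 and without diabetic ZT21 replicate 3, 4 or 5, each left out alone, with log2 fold changes of -0.35 to -0.29 and unadjusted p-values of 0.0658 to 0.131.

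No other gene reached an unadjusted p-value under 0.05 over all time points. Sst, on chromosome 16 from 23889573 to 23890958, encodes somatostatin, an inhibitory peptide of wide-field amacrine cells. Its log2 fold change was 0.14 (SE 0.112), with 18.4, 32.7 and 71.4 as lowest, median and highest level in control and 18.7, 36.4 and 61.9 in diabetic retinas. Cck, on chromosome 9 from 121489824 to 121495694, encodes cholecystokinin and had a log2 fold change of -0.11 (SE 0.0835). Tac1, on chromosome 6 from 7554879 to 7565834, encodes substance P and neurokinin A and had 0.06 (SE 0.0597). Npy, also on chromosome 6, from 49822710 to 49829507, encodes neuropeptide Y and had -0.03 (SE 0.0980).

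The 3 remaining genes also did not pass. Adcyap1, on chromosome 17 from 93199017 to 93206537, had a log2 fold change of 0.06 (SE 0.0843, adjusted p = 0.815, edgeR). Crh, on chromosome 3 from 19693401 to 19695396, encodes corticotropin-releasing hormone and had 0.19 (SE 0.184, adjusted p = 0.712). Penk, on chromosome 4 from 4133531 to 4138819, encodes the enkephalins, which act on opioid receptors. It had 0.24, but with the largest SE of the 8 genes, 0.222, so that its 95% interval ran from -0.19 to 0.68. Intervals of this width are compatible with differences in either direction, so equal levels in the genotypes were not shown. An exon of the gene A830012C17Rik overlaps Penk, and how reads there were assigned is not known, since the strand setting of the counting was not given. That gene had a mean of 0.879 reads per library, against 212 for Penk.

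**Figure D1:**
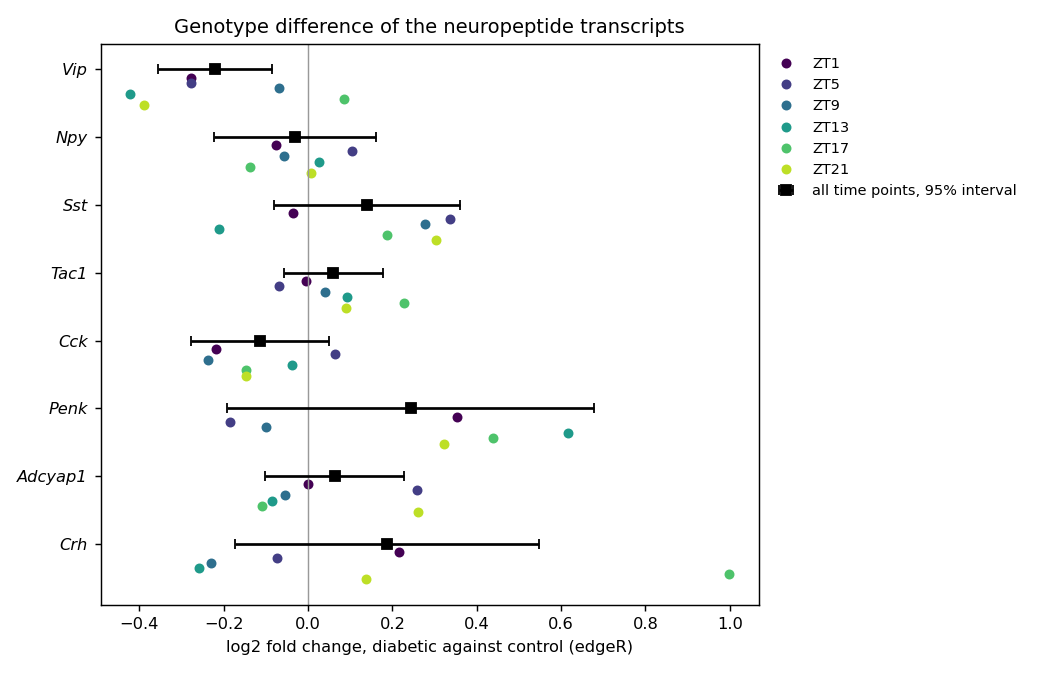
Log2 fold change of each gene, diabetic against control, from edgeR, over all time points (square, with the 95% interval) and at each ZT (coloured points, without intervals). The interval of Vip lies below 0 before adjustment, at -0.36 to -0.08, and those of the other 7 genes include 0.

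At single time points 0 of the 8 genes passed after adjustment with edgeR, DESeq2 or limma-voom at any ZT. Of all genes 0.0157% passed in edgeR at ZT1, 0.0209% at ZT5, 0.00523% at ZT9, 0.152% at ZT17 and 0% at ZT13 and at ZT21. At an unadjusted p-value under 0.05 it was Vip at ZT13 and ZT21 and Crh at ZT17, 1 gene each, and none at the other ZT, where 5.43%, 6.06%, 4.45%, 4.41%, 8.76% and 4.62% of all genes passed from ZT1 to ZT21. Crh at ZT17 had 0.924, 2.77, 5.75, 6.40 and 7.82 in the 5 control libraries and 6.04, 10.5, 11.0 and 11.8 in the 4 diabetic ones. The groups overlapped by 1 diabetic library, and all values rest on few reads. Its log2 fold change was 1.00 (SE 0.426, unadjusted p = 0.0228, adjusted p = 0.458, edgeR). Leaving out 1 library gave 0.75 to 1.26, and the unadjusted p-value was above 0.05 without control ZT17 replicate 4 (0.0823) or 5 (0.0576) or diabetic ZT17 replicate 4 (0.0615). Without the 3 libraries high in lens markers it was 0.0619.

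The second comparison asked whether the precursors followed the light/dark cycle. A cosine with a period of 24 h was fitted within each genotype, with 0 of the 8 genes past the adjusted threshold in control and 0 in diabetic retinas, where 12.1% and 14.2% of all genes passed. At an unadjusted p-value under 0.05 it was Cck in control and Adcyap1 in diabetic retinas, 1 gene each, where 26.3% and 26.8% of all genes passed. With DESeq2 and limma-voom it was also 0 genes after adjustment in each genotype, where these tools passed 2592 and 2392 of the 19120 genes in control and 3038 and 2803 in diabetic retinas. The test for any change over time, which assumes no shape, passed 0 of the 8 genes in both genotypes with edgeR, beside 8.97% of all genes in control and 10% in diabetic retinas, with DESeq2 and limma-voom passing Cck alone of the 8 in control retinas, where they passed 2159 and 1841 of the 19120 genes. At an unadjusted p-value under 0.05 that test had 1 gene in control, again Cck, and 0 in diabetic retinas, where 21.5% and 22.1% of all genes passed.

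**Figure D2:**
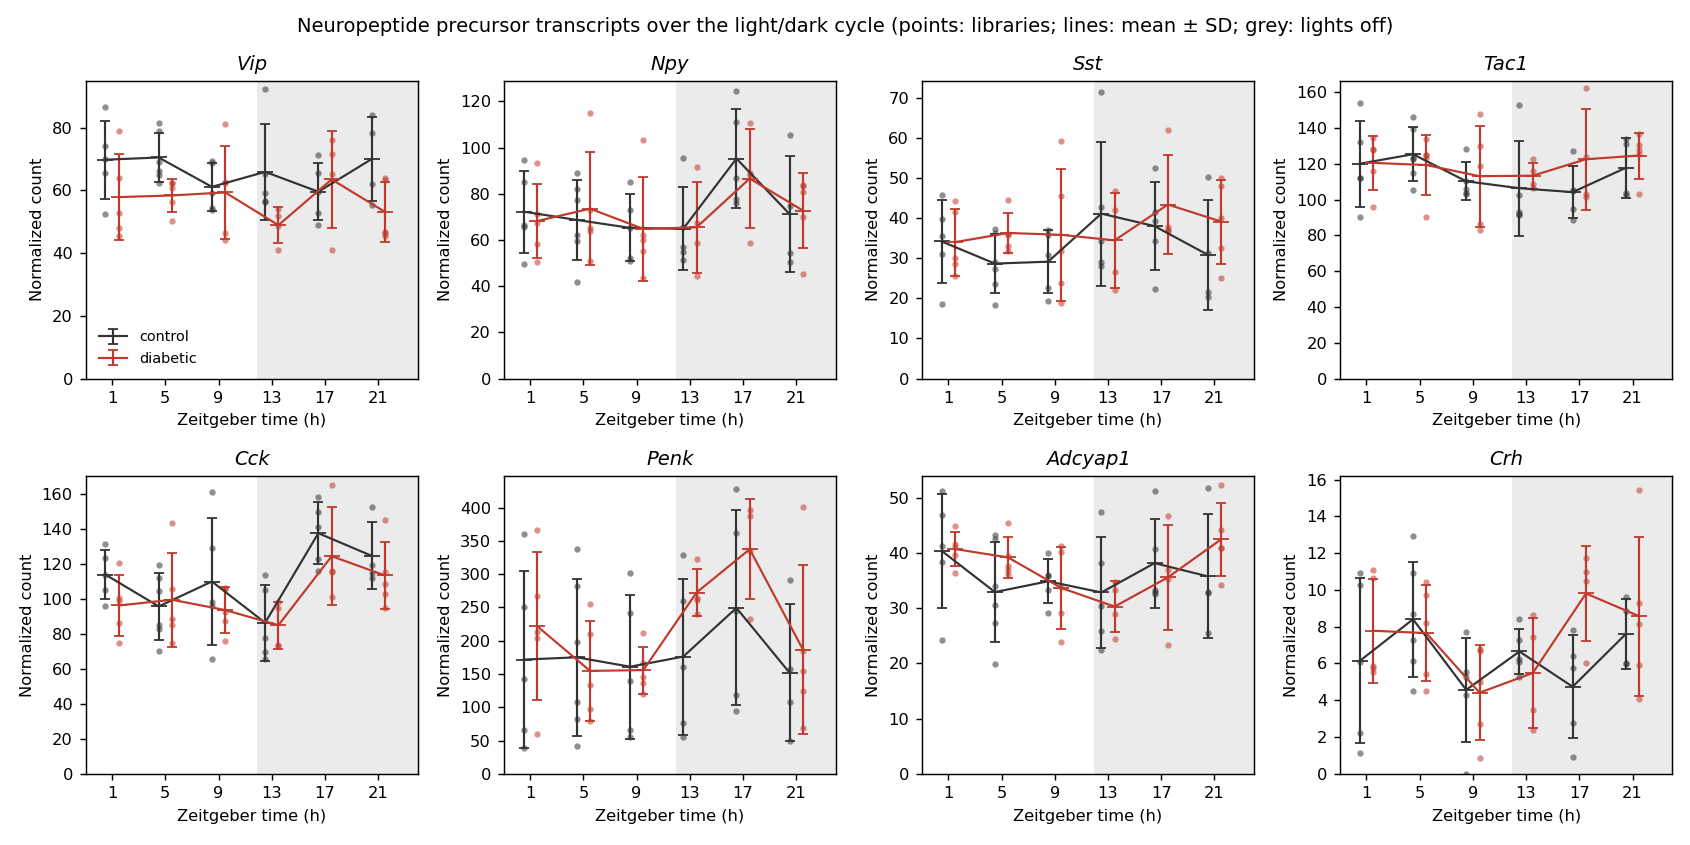
Normalized counts (y axis) of the 8 genes against zeitgeber time (x axis, h) in control and diabetic retinas. Points are libraries, lines join the means with their SD, and grey marks lights off. Cck and Npy have their highest mean at ZT17 in both genotypes, and the libraries of Penk spread from 39.3 to 428.

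In diabetic retinas Adcyap1 was the gene nearest to a rhythm by the cosine, and in control retinas it was Cck. The 5 control libraries at ZT17 had 116, 123, 141, 150 and 159, and the 4 at ZT21 had 112, 115, 120 and 153. At ZT13 the 5 control libraries had 65.7, 69.9, 77.7, 105 and 114, so the groups of ZT13 and ZT17 did not overlap, although they were only 4 h apart. At ZT9 they ranged from 65.6 to 161, the widest span of the 6 time points. The means went from 86.5 ± 21.7 (SD, n = 5) at ZT13 to 138 ± 17.9 (SD, n = 5) at ZT17, a ratio of 1.59. In diabetic retinas the lowest and highest means were at the same ZT, with 85.1 ± 13.5 (SD, n = 4) and 125 ± 27.99 (SD, n = 4).

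The fitted peak of Cck was at ZT20.0 ± 1.39 h (SE) in control and ZT19.7 ± 1.78 h in diabetic retinas, with relative amplitudes of 15.6 ± 5.85% and 12.1 ± 5.49% of the mean. The cosine had an adjusted p-value of 0.115 in control (unadjusted p = 0.0222, edgeR) and 0.285 in diabetic retinas. It passed without control ZT9 replicate 4, the library with 161, at an adjusted p-value of 0.0180, and without all ZT9 libraries at 0.0268. For any change over time the adjusted p-value of Cck in control retinas was 0.0612 with edgeR, 0.0443 with limma-voom and 0.0314 with DESeq2. When 1 library was left out, that value ranged from 0.0273 to 0.166. It passed without control ZT5 replicate 5, ZT9 replicates 3 and 4, ZT13 replicates 4 and 5 and ZT17 replicate 2, each left out alone, and without diabetic ZT5 replicate 4 or ZT17 replicate 3.

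Npy had the same time of the highest mean as Cck, ZT17, in both genotypes. The 5 control libraries at ZT17 had 76.0, 77.7, 86.9, 111 and 125, against 51.3, 54.7, 57.1, 65.7 and 95.4 at ZT13. These groups overlapped, and its cosine had an adjusted p-value of 0.366 in control and 0.725 in diabetic retinas (edgeR). The fitted peak, at ZT18.8 ± 2.00 h in control retinas, moved to ZT23.5 without the libraries of ZT17. Sst peaked at ZT16.0 ± 2.39 h in control and ZT17.8 ± 3.74 h in diabetic retinas, with relative amplitudes of 14.5 ± 8.54% and 7.95 ± 7.83%, which are below 2 times their SE.

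Adcyap1 had its highest fitted level near lights on, at ZT24.0 ± 1.06 h in diabetic and ZT21.8 ± 3.07 h in control retinas. In diabetic retinas the 5 libraries at ZT21 had 34.2, 40.8, 40.9, 44.0 and 52.2, and the 4 at ZT13 had 24.3, 28.8, 33.3 and 34.6. These groups overlapped by 1 library. The relative amplitude was 15.3 ± 4.24% in diabetic and 7.63 ± 6.49% in control retinas, and the cosine had an adjusted p-value of 0.136 and 0.609 (edgeR). Tac1 had group means between 104 ± 14.6 (SD, n = 5) and 125 ± 15.2 (SD, n = 6) in control retinas, and an adjusted p-value of 0.209. Vip showed relative amplitudes of 6.995 ± 4.23% in controls and 2.05 ± 5.67% in diabetic retinas, and its peak time in diabetic retinas had an SE of 10.2 h, so that no peak was resolved. Crh had relative amplitudes of 15.8 ± 12.3% and 28.3 ± 11.1%, with adjusted p-values of 0.704 and 0.252.

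Whether the daily course differed between the genotypes was tested as the difference of the 2 cosines in the same fit. None of the 8 genes passed, either adjusted or at an unadjusted p-value under 0.05, with edgeR, DESeq2 or limma-voom. Over all genes edgeR passed 0% after adjustment and 3.36% before it. The smallest unadjusted p-value among the 8 genes was 0.276, for Crh. A gene that came nearer to the threshold in 1 genotype, such as Cck or Adcyap1, was therefore not shown to differ in rhythm between them.

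Penk had the widest spread between libraries of the 8 genes, and the largest excess over counting error. In control retinas it had 39.3 at the lowest, 151 in the median and 428 at the highest, and in diabetic retinas 59.7, 210 and 402, a span of 10.9-fold over all libraries. The spread was within groups, as the 5 control libraries at ZT1 had 39.3, 65.6, 143, 250 and 360 and those at ZT17 had 93.7, 118, 245, 362 and 428. The diabetic groups at ZT13 and ZT17 held only high libraries, with 240, 261, 265 and 323 and with 232, 334, 387 and 397. The coefficient of variation within groups was 53.9%, against 6.86% from counting alone, and the SD of log2 levels was larger than that of 99.8% of 12948 genes with a mean of at least 50 normalized counts. The fitted cosine had a relative amplitude of 32.4 ± 11.3% with a peak at ZT16.7 ± 1.30 h in diabetic retinas, where the adjusted p-value was 0.316 (edgeR). In controls it was 13.3 ± 16.4%, with an adjusted p-value of 0.834.

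**Figure D3:**
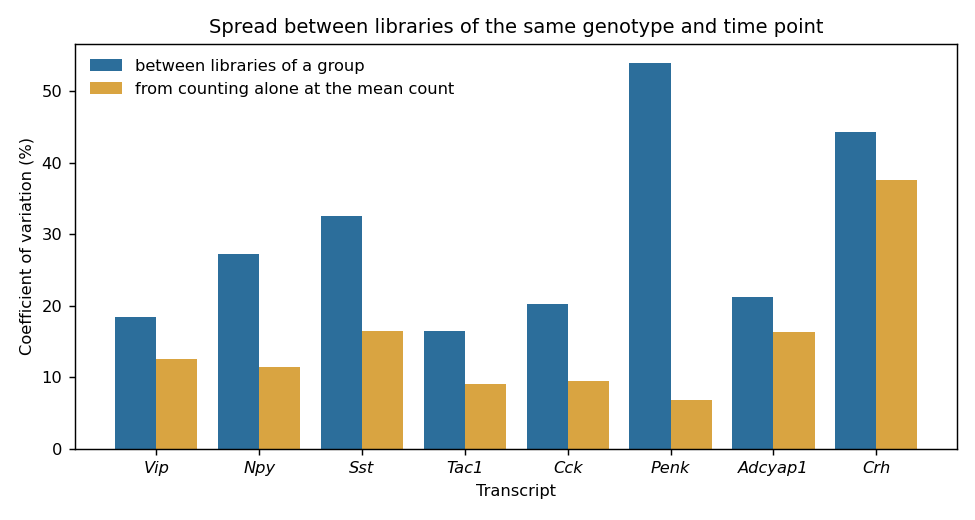
Coefficient of variation (y axis, percent) between libraries of the same genotype and time point, for each of the 8 genes (x axis), beside the value that counting alone gives at the gene's mean count. Penk stands at 53.9% against 6.86%, while Crh stands at 44.3% against 37.6%.

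The other genes were less spread, with 44.3% for Crh, where counting alone gives 37.6%, and 16.4% for Tac1, 18.4% for Vip, 20.3% for Cck, 21.2% for Adcyap1, 27.2% for Npy and 32.6% for Sst. All of these were above the value from counting alone, which was 9.08% for Tac1 and 16.5% for Sst. By SD of log2 levels, Npy was above 96.5% of the 12948 genes.

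To see which genes shared these patterns, each gene was compared with all others that had a mean of at least 50 normalized counts (12947 or 12948 genes) over the 58 libraries by the Spearman correlation of log2 levels, and genes among the 3 most alike were named. These are descriptions, since the most alike of many genes were chosen, and the libraries share depth and dissection. Among the genes most like Penk were the extracellular matrix genes Fbln1, with a Spearman correlation of 0.95 (Pearson 0.93), and Fmod, also at 0.95 (Pearson 0.94). With the group means removed the Spearman correlations were 0.95 and 0.96, and without the 2 libraries farthest from the median of Penk the Pearson correlations were 0.92 and 0.94. Over the libraries Fbln1 went from 6.53 to 685 and Fmod from 21.5 to 267. In all, 28 genes had a correlation above 0.8 with Penk.

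Further genes were looked up after these values had been seen. Optc, which encodes opticin, a protein of the vitreous made by the ciliary body, had a Spearman correlation of 0.94 with Penk and went from 3.06 to 343. Gpx3, a secreted glutathione peroxidase, had 0.95 and Col18a1, a basement membrane collagen, 0.94. Crhbp, which binds corticotropin-releasing hormone and is among the receptors and binding proteins of the 8 peptides, had 0.92. With the group means removed they had 0.96, 0.95, 0.96 and 0.94. None of these 6 genes passed in the comparison of the genotypes over all time points with edgeR, where Fmod had a log2 fold change of 0.36 (SE 0.201) and Optc 0.22 (SE 0.298). Of 10 cornea and ciliary body markers, 9 were among the gene symbols and only 3 were above the filter, so their sum is a limited measure. The summed level of these markers went from 47.4 to 566 in control and from 57.98 to 681 in diabetic retinas, and its Spearman correlation with Penk was 0.40. For the pigment epithelium markers it was 0.20, and for microglia, Muller glia, amacrine and lens markers 0.33, 0.27, 0.11 and 0.04, while it was -0.34 for cone markers. The part of tissue at the edge of the retina in the values of Penk was not tested.

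**Figure D4:**
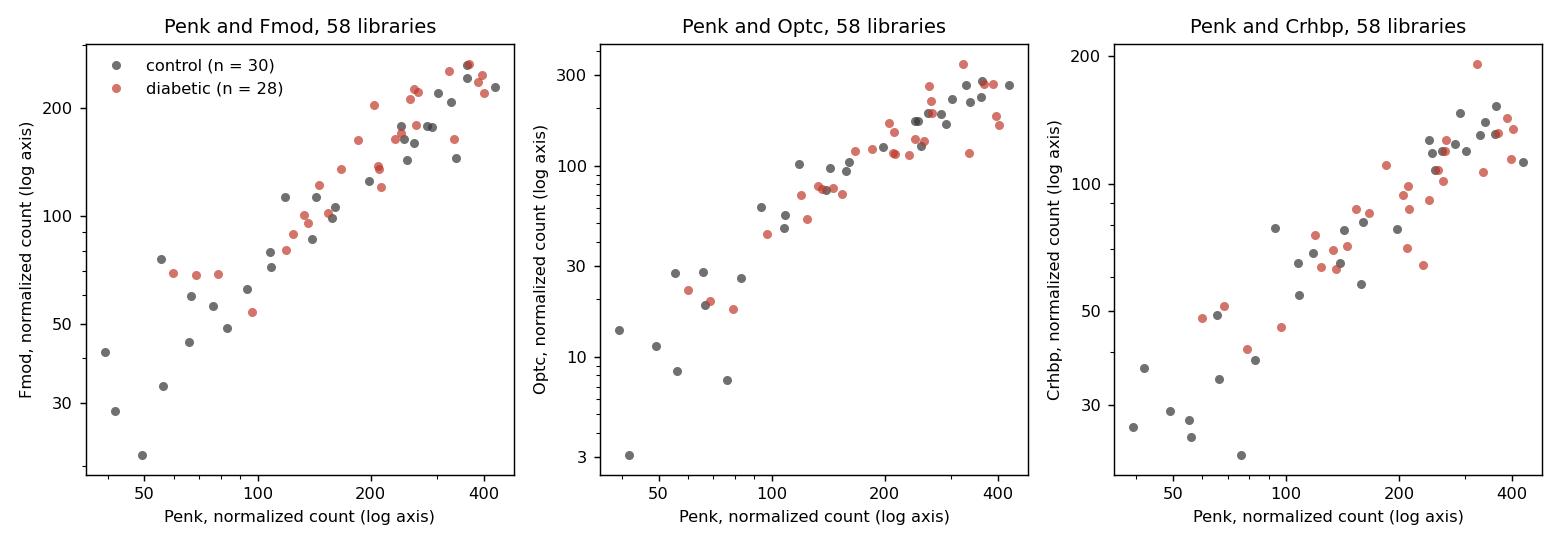
Normalized counts of Fmod, Optc and Crhbp (y axes, log scale) against Penk (x axis, log scale) in the 58 libraries, 30 control and 28 diabetic. The libraries lie along 1 line in each panel, with Spearman correlations of 0.95, 0.94 and 0.92, and both genotypes cover most of its length.

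Npy and Cck moved with a pattern of the whole library. The first principal component of the 12948 genes held 31.2% of their variance, and its Spearman correlation was 0.78 with Npy, 0.75 with Cck and 0.60 with Sst (Pearson 0.77, 0.78 and 0.57). Without the 2 libraries farthest from its median the Pearson correlations were 0.75, 0.75 and 0.50, and with the group means removed the Spearman ones were 0.75, 0.77 and 0.56. With the total count of the library the Spearman correlations were 0.55 for Npy, 0.56 for Cck and 0.32 for Sst. The median of the component was highest at ZT17 in both genotypes, at 0.0342 in control and 0.0545 in diabetic retinas, the time point at which Npy and Cck had their highest means. Its part in their daily course was not tested. The other 5 genes had correlations with the component between -0.28 for Vip and 0.24 for Penk.

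The genes most like Npy were Syn1, a synaptic vesicle protein, at 0.85, Myl12b at 0.84 and Atp6v1g2, a vesicle proton pump subunit, at 0.84. For Cck they were the adhesion molecule Nectin1 at 0.86, the cone channel subunit Cnga3 at 0.85 and Coro2b at 0.83. The number of genes above 0.8 was 26 for Npy and 34 for Cck, and 0 for Vip, Sst, Tac1, Adcyap1 and Crh. Vip was most like Cand1, at 0.67, and Sst like Plekho1, at 0.68. Tac1 was most like Rgs4, a regulator of G protein signalling, at 0.52, and Crh like Stat6 at 0.51. Adcyap1 had 0.50 with BC030500, 0.50 with Pde4d, a phosphodiesterase that degrades cyclic AMP, and 0.49 with Bdnf. With the group means removed the values were 0.39, 0.46 and 0.62. Among the 28 pairs of the 8 genes, the highest correlation was 0.63, between Npy and Cck, followed by 0.51 between Npy and Sst, and the lowest was -0.37, between Vip and Sst.

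The peptides' receptors and binding proteins were taken as a list of 26 genes, of which 19 were tested, and 0 of them differed between the genotypes over all time points, adjusted or at an unadjusted p-value under 0.05, where 2.97% and 15.4% of all genes passed. Their median log2 fold change was 0.04. Among the receptors, Vipr2, which binds VIP and PACAP, had 810 ± 63.6 in the 30 control and 829 ± 52.8 in the 28 diabetic libraries (mean ± SD). Adcyap1r1, the PACAP receptor, had 144 ± 16.4 and 153 ± 20.3, and Tacr3, the neurokinin B receptor, had 336 ± 45.2 and 315 ± 40.4. Not tested for their low counts were Npy2r, Npy4r, Npy5r, Sstr5, Tacr2, Cckar and Oprd1.

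Cckbr, the receptor through which cholecystokinin acts in the brain, was the 1 gene of this list with a 24 h cosine in either genotype. It changed over the day in both, with an adjusted p-value of 0.000383 in control and 0.000567 in diabetic retinas (edgeR), and the difference between the genotypes was not past the threshold. In control retinas its level at ZT17 was 142 at the lowest, 169 in the median and 212 at the highest, against 89.3, 107 and 122 at ZT5. In diabetic retinas it was 140, 155 and 201 at ZT17 and 81.5, 99.6 and 119 at ZT5. ZT17 and ZT5 did not overlap in either genotype. The call held in each fit that left out 1 library, but was lost in control retinas without all ZT17 libraries (adjusted p = 0.177). The share of genes with a cosine was 5.26% of the list in each genotype, beside the 12.1% and 14.2% of all genes.

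The list of 36 other neuropeptide precursors held 13 genes that were tested. For Nts, Pmch, Pyy and Ucn3 no read was counted in any library. Npff, the precursor of neuropeptide FF, was higher in diabetic retinas and the 1 gene that passed, or 7.69% of those tested beside 2.97% of all genes, with means of 15.9 ± 4.58 in the controls and 21.2 ± 6.97 in the diabetic libraries (SD, n = 30 and 28). Its log2 fold change was 0.41 (SE 0.115, adjusted p = 0.0308, edgeR), and the call was lost without diabetic ZT5 replicate 5 or ZT17 replicate 5 (up to 0.0557), and also with the replicate number as a block and with no filter on low counts (up to 0.0594). In the daily course Apln, the apelin precursor, passed in control retinas (adjusted p = 0.0482, edgeR), a call that was lost in 30 of 58 fits without 1 library and in 7 of 14 other settings, and 0 genes passed in diabetic retinas, where the shares of all genes were 12.1% and 14.2%. Cartpt, a precursor of certain ganglion and amacrine cells, had 629 ± 63.0 and 589 ± 86.6, and Pdyn, the dynorphin precursor, 154 ± 27.7 and 167 ± 25.9, neither past the threshold.

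All 22 genes of precursor processing and dense-core vesicles were tested, and 1 differed between the genotypes, or 4.55% beside 2.97% of all genes. Qpct, the glutaminyl cyclase that closes the end of some peptides, was lower in diabetic retinas, at 422 ± 48.9 against 470 ± 46.1 (SD, n = 28 and 30), with a log2 fold change of -0.15 (SE 0.0405, adjusted p = 0.0204, edgeR), and passed in every fit that left out 1 library. The cosine passed for 3 of 22 genes in each genotype, or 13.6%, near the 12.1% and 14.2% of all genes. Cadps2, a priming factor of dense-core vesicles, was among them in both, with adjusted p-values of 0.000381 and 0.000869. The other two were Cadps and Pcsk6 in control and Chgb and Scg3 in diabetic retinas, and the difference of the cosines passed for none of the 22. The call of Pcsk6 was lost in 9 and that of Scg3 in 8 of 58 fits that left out 1 library, and that of Chgb without diabetic ZT17 replicate 3 (adjusted p = 0.0614). Among 14 other settings, which include leaving out each time point, the call was lost in 2 for Cadps (without ZT9 or ZT21, adjusted p up to 0.214), 5 for Pcsk6, 2 for Chgb and 4 for Scg3. The convertase Pcsk1 had 172 ± 31.5 and 172 ± 31.8, and Pcsk2 678 ± 45.3 and 653 ± 53.9.

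Of 11 peptidases that degrade peptides outside the cell or in the cytosol, 1 passed between the genotypes, or 9.09% beside 2.97% of all genes. Ece2 was lower in diabetic retinas, at 426 ± 31.2 against 456 ± 33.8 (SD, n = 28 and 30), a log2 fold change of -0.10 (SE 0.0296, adjusted p = 0.0479, edgeR), and lost the call in 42 of 58 fits that left out 1 library (up to 0.0715) and in 3 of 8 other settings (up to 0.128). The cosine passed for 0 of 11 in control, beside 12.1% of all genes, and for 2, Nln and Ece1, in diabetic retinas, or 18.2% beside 14.2%, where the call of Ece1 was lost without diabetic ZT17 replicate 3 (adjusted p = 0.0756) or all libraries of ZT17 (0.162), and that of Nln without those of ZT9 or of ZT21 (up to 0.132). For any change over time it was Prep and Nln in control, or 18.2% beside 8.97% of all genes, and Nln, Thop1 and Ece1 in diabetic retinas, or 27.3% beside 10%. Of these, the call of Nln in control was lost in 9 of 58 and that of Ece1 in 7 of 58 fits that left out 1 library. With no filter on low counts neither Prep (adjusted p = 0.119) nor Nln passed in control, and Nln did not without the 3 libraries high in lens markers (0.0844).

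Of 16 genes of the CREB pathway and of neuronal activity, 2 were lower in diabetic retinas, Fos and Egr1, both immediate early genes. Fos had means of 339 ± 219 in diabetic and 559 ± 229 in control retinas (SD, n = 28 and 30), a log2 fold change of -0.72 (SE 0.178, adjusted p = 0.0147, edgeR), and passed in every fit that left out 1 library. Egr1 had a log2 fold change of -1.06 (SE 0.311, adjusted p = 0.0446), but passed in 22 of these 58 fits only, with an adjusted p-value of up to 0.0806, and not with no filter on low counts or without the 3 libraries high in lens markers (up to 0.0853). In diabetic retinas at ZT17 Egr1 went from 201 to 6340 with a median of 295, and 1 library, replicate 3, was far above the others. Without that library the log2 fold change was -1.54 (adjusted p = 0.000128, edgeR). Npas4 and Bdnf followed the cosine in both genotypes, where the call of Bdnf in diabetic retinas was lost without the libraries of ZT1 (adjusted p = 0.111). Npas4 had a median of 93.1 at ZT1 and 38.0 at ZT21 in control and of 92.8 and 31.6 in diabetic retinas, without overlap of the 2 time points. Bdnf had 201 at ZT1 and 95.2 at ZT17 in control and 189 and 112 in diabetic retinas. Over this list 12.5% of the genes passed between the genotypes, beside 2.97% of all genes, and 12.5% for the cosine in each genotype, which is near the 12.1% and 14.2% of all genes. For any change over time 3 of 16 passed in control retinas, Npas4, Bdnf and Nr4a1, an immediate early gene, or 18.8% beside 8.97% of all genes. In diabetic retinas Egr1 passed as well, which makes 25% beside 10%, but its call was lost in 15 of 58 fits that left out 1 library and in 4 of 7 other settings (adjusted p up to 0.591). In the neuropeptide lists any change over time passed for 1 of 19 receptors and binding proteins in each genotype, Cckbr, or 5.26%, and for 0 of 13 other precursors in each. Among the 22 processing genes Cadps2 passed in control, or 4.55%, and Cadps2 and Chgb in diabetic retinas, or 9.09%. The call of Chgb was lost without diabetic ZT17 replicate 3, ZT17 replicate 5 or ZT21 replicate 3 (adjusted p up to 0.152) and with no filter on low counts. Creb1 itself had 1951 ± 246 and 1988 ± 189 and did not pass.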

How the data were processed

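Total RNA of individual retinal samples was depleted of ribosomal RNA, made into libraries with the KAPA RNA HyperPrep kit and sequenced. The authors aligned the reads with STAR 2.7.4a to GRCm38.p5 with Gencode M15 and counted them with HTSeq 0.11.1. The deposited values are raw counts per gene symbol, not normalized or filtered. The strand setting is not given in the sources used here. Counting error limits low genes the most, as given beside Crh.

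The 8 genes and all gene lists were chosen with earlier results of these data known. Genes with a median above 4 counts per DESeq2 size factor were tested on raw counts with edgeR 4.0.16 (quasi-likelihood, TMM, robust trended dispersion, 15 grid points) in R 4.3.3, with Benjamini-Hochberg adjustment over all 19120 genes and a threshold of 0.05. The genotypes were compared across all ZT in a fit with 2 groups, and at each ZT in a fit of 12 groups. The 24 h cosine (2 coefficients per genotype) was used in place of the study's rank-based rhythm test. Peak times and relative amplitudes came from least-squares cosines on normalized counts, and levels per length from Gencode M21 exons, which 48082 symbols matched. Correlations used log2(normalized count + 1). The alternatives were DESeq2 1.42.0, limma-voom 3.58.1, other size factors and filters, a replicate block, and libraries or time points left out. The 113 pairs of replicates all differed by more than sampling noise (lowest chi-square divided by its degrees of freedom 1.86). The method was tested on simulated counts in which each gene varied independently. That test does not cover a pattern shared between genes, such as the principal component described above.

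The genes named are the 8 precursors, from each pathway list at most the 4 genes with the smallest p-value past the threshold per comparison, and for each precursor the 3 most alike of the genes with a mean of at least 50 normalized counts. Other genes are named only with their values, chosen after these were seen. A gene that this rule also names is not reported here. Protein sequences were not used here.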

Additional observations from a re-analysis of the deposited data

Results flagged for a closer look

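In 5 of 96 groups of 1 gene, genotype and time point, 1 library lay farther from the rest than Dixon's 95% critical value allows for the group's size. Chance flags about 1 in 20 groups, so this number is near what chance gives. Vip had 92.3 normalized counts in control ZT13 replicate 1, where the other 4 libraries had 56.2 to 65.3, and Tac1 had 153 in the same library, where the others had 91.2 to 103. Tac1 had 128 in control ZT9 replicate 1, against 103 to 110 in the others, and 90.1 in diabetic ZT5 replicate 3, against 123 to 134. Sst had 61.9 in diabetic ZT17 replicate 3, against 36.7 to 37.8. Of these, the value of Vip enters the largest genotype difference of a single time point for that gene, which was given without it beside the result.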

How the results depend on the processing

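The number of the 8 genes past the threshold was 0 in each comparison and stayed at 0 under the other size factors and both other filters. With the stricter filter, a median above 10, Crh was not tested. The time point as an added factor was used only in the comparison over all time points, where the number also stayed at 0. This number became 1 over all time points with limma-voom and with DESeq2 (Vip), for any change over time in control retinas with limma-voom and with DESeq2 (Cck), and for the cosine in control retinas without the libraries of ZT9 (Cck). When 1 library was left out, the number ranged from 0 to 1 in these 3 comparisons and was 0 in the other 9. The log2 fold change of Npy over all time points, which was -0.03, ranged from -0.064 to 0.0053 in those fits and was above 0 without control ZT17 replicate 1. Over all genes 568 differed between the genotypes, but 897 with the time point as a factor and 366 with no filter on low counts. At single time points at most 29 genes passed (ZT17), and there it was 83 with DESeq2, 65 with limma-voom and 44 with the stricter filter, and at ZT5 24 with DESeq2 in place of 4. The cosine passed 739 in place of 2315 genes in control and 1326 in place of 2718 in diabetic retinas without the libraries of ZT17. The 3 libraries with high lens markers, left out as an alternative chosen after seeing the data, changed no count of the 8 genes. Peak times and amplitudes kept within 1 SE in each fit without 1 library, while with each time point left out in turn 6 amplitudes moved by more and 90 did not, and 12 peak times moved by more and 100 did not, the cosine on log2 values included. The cause of these changes was not tested. With few reads of Crh and a wide spread of Penk, differences within their intervals could not be detected.

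The replicate numbers were not taken as pairs, since neither the labels nor the study tie a number to a litter, batch or day and not every pair deviated together. The deviations of 26 same-numbered pairs of control and diabetic libraries correlated from -0.44 to 0.81, with 19 of 26 above 0.1 and a median of 0.26. At ZT13 all 4 were above 0.1. There 0 of the 19120 genes passed, both without and with the block, so the unchanged calls of the 8 genes say little. With the replicate number as a block, 1 gene (Cck) passed in control retinas for the cosine (adjusted p = 0.0384, edgeR) and for any change over time (0.0061), and 0 in the other comparisons, while of all genes 500 differed between the genotypes, 49 in place of 29 at ZT17, and 2998 followed the cosine in control retinas in place of 2315.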
